A study of Mus musculus with 6 samples.

Results

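The 3 mature arms of miR-129 were followed in the dorsal striatum of mice given saline or put through nicotine withdrawal, with tissue taken 1 week after the last injection. They were taken by name from the 756 miRNAs of the deposited table and are mmu-miR-129-5p, mmu-miR-129-1-3p and mmu-miR-129-2-3p, all 3 of which passed the filter on low values. The animals were C57BL/6N mice aged 7 weeks. In the withdrawal group (n = 3) nicotine was injected at 0.5 mg/kg once a day for 3 days, and 24 hours after the last dose mecamylamine, a blocker of nicotinic acetylcholine receptors, was given at 3.0 mg/kg. Controls (n = 3) had saline injections and no drug is named for them, so effects of nicotine, of mecamylamine and of withdrawal cannot be told apart. Tissue was cut out by cryosection, and small RNA was sequenced from bulk tissue, in which fewer cells of a type and less RNA per cell cannot be told apart. Whether each library is 1 mouse is not spelled out in the labels. If it is not, p-values reflect only sample-to-sample spread, which may be technical.

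A miRNA gene is transcribed as a hairpin, from which the enzyme Dicer cuts a short duplex of a 5p and a 3p strand. As a rule 1 strand is kept in Argonaute, where its seed, bases 2 to 8, finds target messenger RNAs, and the other is degraded. miR-129 is a neuron-enriched miRNA encoded at 2 places in the genome. Its 5p arm is known from rodent hippocampal neurons, where it represses the potassium channel Kcna1 in dendrites and takes part in homeostatic weakening of excitatory synapses. Its 3p arm is known from human cells and zebrafish as a repressor of Ccp110, a centriolar protein that restrains cilium formation.

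The sequences show why the 5p arm has 1 name and the 3p arm has 2. RefSeq's GRCm38 tables hold a mature entry for 2 of the 3 members, and each seed is printed here in capitals.
miR-129-5p: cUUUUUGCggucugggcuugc
miR-129-2-3p: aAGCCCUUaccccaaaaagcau
The seeds of the arms differ, so the strands of 1 hairpin recognize different target sites. No other of the 1679 mature names in that table carries either seed.

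The hairpins of both loci contain the whole 5p sequence without a mismatch. In the hairpins below, capitals mark miR-129-5p and the stretch that matches miR-129-2-3p best.
Mir129-1: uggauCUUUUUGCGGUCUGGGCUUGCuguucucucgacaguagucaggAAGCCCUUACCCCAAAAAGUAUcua
Mir129-2: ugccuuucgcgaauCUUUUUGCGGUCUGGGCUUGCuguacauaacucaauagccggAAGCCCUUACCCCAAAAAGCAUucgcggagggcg
In the best local alignment 59 of 70 columns were identical. The 3p stretches differ at a single base near the 3′ end, shown in capitals in the pair below.
Mir129-1 stretch: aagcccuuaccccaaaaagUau
miR-129-2-3p: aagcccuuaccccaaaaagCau
Counted from the 5′ end of miR-129-2-3p, the change toward the Mir129-1 hairpin is C20U. The first 19 bases are shared, so a read that ends before position 20 cannot be assigned to 1 locus. How such reads were treated is not given in the sources used here.

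Mir129-1 lies on chromosome 6, where its nearest coding neighbours in RefSeq's GRCm38 table are Snd1 and Lep, the leptin gene. Mir129-2 lies on chromosome 2 inside the span of the long noncoding RNA gene Mir670hg, between Hsd17b12 and Ttc17. Mir129b, a separate miRNA gene, overlaps Mir129-2 on the opposite strand, and whether the counting used strand is not given in the sources used here. The notes to the samples name the build mm9, so no positions are given.

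Values are normalized reads, that is, reads divided by 1 factor per library by the authors, which does not make library totals equal. If 1 step of these values is 1 read, the libraries held between 40111870 and 53262896 reads, and a member between 14673 and 84793. Counting error for a member was then at most 0.826%, which covers counting only, since PCR copies are not independent. Normalized totals were lower in every withdrawal library (44098338 to 44437368) than in any saline library (44870956 to 45619789). The tissue label was checked on neuronal and liver miRNAs, which cannot tell the dorsal striatum from other brain regions. The 6 neuronal miRNAs, miR-9-5p the most abundant, summed to between 3085394 and 3110330 in saline and between 3025626 and 3094833 in withdrawal, with 1 called lower (miR-138-5p), while miR-122-5p, which defines liver, stood at 29.2 ± 8.75 and 25.3 ± 0.531 (SD, n = 3 each).

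miR-129-5p was the most even of the 3 arms. It stood at 65413, 66724 and 66210 normalized reads in saline libraries 1, 2 and 3, and at 67853, 70272 and 70743 in withdrawal libraries 1, 2 and 3. Every withdrawal library was above every saline library, also as a share of all normalized reads (0.146 ± 0.00246% and 0.157 ± 0.00358%). The means were 66116 ± 660 and 69623 ± 1551 (SD, n = 3 each). The log2 fold change, withdrawal over saline on the log2(value + 1) scale, was 0.07 ± 0.03 (SE), a difference of 5.29%, and did not pass limma's test (unadjusted p = 0.0163, Benjamini-Hochberg adjusted p = 0.126 over 699 miRNAs). Its 95% interval ran from 0.02 to 0.13.

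miR-129-2-3p, from the chromosome 2 locus, lay on the other side. It stood at 75744, 69126 and 69007 normalized reads in saline libraries 1, 2 and 3, and at 67936, 62701 and 67820 in withdrawal libraries 1, 2 and 3. The groups did not overlap, but the gap between saline 3 and withdrawal 1 was small beside the spread, with saline 1 high and withdrawal 2 low. As a share of all normalized reads in a library they did overlap, at 0.157 ± 0.00825% and 0.149 ± 0.00622% (SD, n = 3 each, two-sided exact permutation p = 0.4). The means were 71293 ± 3856 and 66153 ± 2990 (SD, n = 3 each). The log2 fold change was -0.11 ± 0.04, a difference of -7.19% with an interval from -0.20 to -0.02 (limma, unadjusted p = 0.0202, adjusted p = 0.141). It was -0.06 without saline 1 and -0.07 without withdrawal 2.

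miR-129-1-3p, from the chromosome 6 locus, had the fewest reads of the 3 arms. It stood at 16618, 15337 and 15035 normalized reads in saline libraries 1, 2 and 3, and at 15231, 14378 and 15160 in withdrawal libraries 1, 2 and 3. Here the groups overlapped, with saline 1 again the highest and withdrawal 2 the lowest. The means were 15663 ± 840 and 14923 ± 473 (SD, n = 3 each), and the log2 fold change was -0.07 ± 0.04 (limma, adjusted p = 0.317). Without saline 1 it was -0.03.

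**Figure D1:**
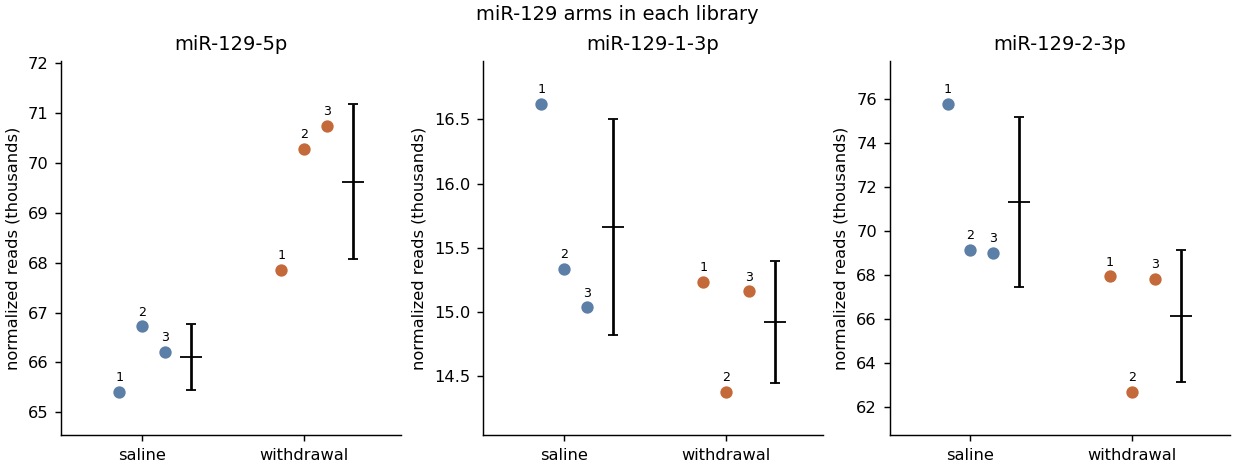
Normalized reads of each miR-129 arm in the 3 saline and 3 withdrawal libraries. Numbers are replicate numbers, and the bars to the right show the mean and SD of each group. The axes, in kiloreads, do not start at 0. The miR-129-5p and miR-129-2-3p groups do not overlap and lie in opposite directions, while miR-129-1-3p overlaps.

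Thus 0 of the 3 arms passed the test, which called 6.58% of the miRNAs tested (46 of 699, 21 higher and 25 lower). At an unadjusted p under 0.05 stood 2 of the 3 arms and 160 of the 699. The groups did not overlap in 2 of the 3 arms, and in 27.6% of all miRNAs tested. With library totals made equal, the values of the arms moved with the lower totals of the withdrawal libraries. miR-129-5p then stood at 0.11 and passed (limma adjusted p = 0.031), miR-129-2-3p at -0.07 and miR-129-1-3p at -0.04, and over all miRNAs 46 were called higher and 15 lower.

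The sum of the 3 arms overlapped between groups. It was 157775, 151187 and 150252 normalized reads in saline libraries 1, 2 and 3 and 151020, 147351 and 153724 in withdrawal libraries 1, 2 and 3. As a share of all normalized reads this was 0.338 ± 0.00901% in saline and 0.340 ± 0.00591% in withdrawal (SD, n = 3 each, two-sided exact permutation p = 0.8, where 0.1 is the smallest p that 3 against 3 allow). The makeup of the sum was less even between groups. miR-129-5p made up 43.2 ± 1.52% of miR-129 reads in saline and 46.2 ± 1.39% in withdrawal, and miR-129-2-3p 46.5 ± 1.26% and 43.9 ± 1.23% (SD, n = 3 each). Neither share overlapped between groups, and both gave the smallest exact permutation p, 0.1. The shares are parts of 1 sum, so they are not separate evidence. Groups also did not overlap in 27.6% of all miRNAs tested and in 27.8% of all arm ratios. miR-129-1-3p made up 10.2 ± 0.273% and 9.90 ± 0.167% (SD, n = 3 each, exact permutation p = 0.2).

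Ratios of arms within a library do not depend on how libraries are scaled. The ratio of miR-129-5p to miR-129-2-3p was 0.864, 0.965 and 0.960 in saline libraries 1, 2 and 3, and 0.999, 1.12 and 1.04 in withdrawal libraries 1, 2 and 3. More reads came from the 3p arm in every saline library and in withdrawal 1, and from the 5p arm in withdrawal 2 and 3. Whether read numbers of different sequences follow their abundance in the tissue was not tested. On the log2 scale the ratio differed by 0.18 ± 0.07 between groups (95% interval 0.00 to 0.36), which did not pass among 245 pairs of 5p and 3p arms (limma, unadjusted p = 0.046, adjusted p = 0.272). It was 0.13 without saline 1.

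The ratio of miR-129-5p to miR-129-1-3p was 3.94, 4.35 and 4.40 in saline libraries 1, 2 and 3, and 4.46, 4.89 and 4.67 in withdrawal libraries 1, 2 and 3. The groups again did not overlap, by a narrow margin between saline 3 and withdrawal 1. The log2 difference was 0.14 ± 0.07, with an interval from -0.02 to 0.31 (limma, adjusted p = 0.34), and 0.09 without saline 1. Since the 5p arm is shared, these ratios are not separate evidence. Against the sum of both 3p arms the ratio of the 5p arm was 0.762 ± 0.0466 in saline and 0.860 ± 0.0484 in withdrawal (SD, n = 3 each, two-sided exact permutation p = 0.1 on the log2 ratio, the smallest possible).

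No pair of arms passed that test, 0% of 245, where limma gave 44 at an unadjusted p under 0.05 and a smallest adjusted p of 0.135. The groups did not overlap in both miR-129 ratios, and in 27.8% of all pairs.

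**Figure D2:**
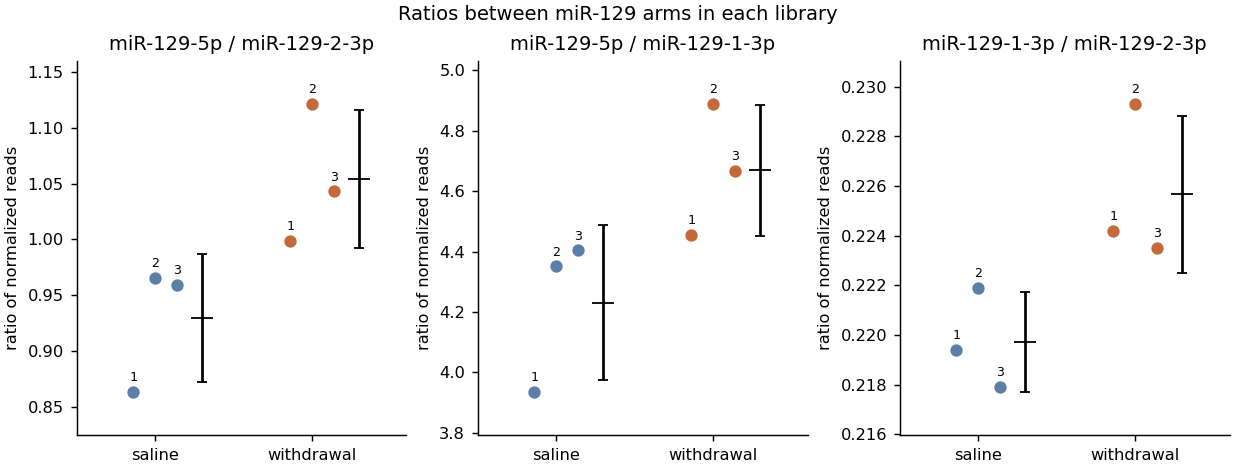
Ratios of normalized reads between the miR-129 arms in each library, with replicate numbers and, to the right, the mean and SD of each group. The axes do not start at 0. All 3 ratios lie higher in each withdrawal library than in any saline library, and the ratio of the 3p arms shows the smallest gap (0.220 to 0.226 in the means).

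In the mean over all 6 libraries, reads as nearly equal as those of miR-129-5p and miR-129-2-3p were uncommon among pairs of arms. The geometric mean ratio of miR-129-5p to miR-129-2-3p over the 6 libraries was 0.989, with single libraries from 0.864 to 1.12. Only 2 of the 245 pairs lay closer to 1 in this mean. Those 2, named after their values were seen, had fewer reads: miR-3074-5p with miR-3074-1-3p (means of 33.9 and 35.1) and miR-350-5p with miR-350-3p (921 and 930). Among the 24 pairs with both arms at 10000 normalized reads or more, none lay closer in the mean over 6 libraries. That mean pools groups on opposite sides of 1, with arithmetic means of 0.929 ± 0.0571 in saline and 1.05 ± 0.0617 in withdrawal (SD, n = 3 each). The counts were not repeated within groups. Of the 24, miR-1298-5p with miR-1298-3p, a pair picked after its values were seen, stood at 0.983. Its log2 difference between groups was 0.00 ± 0.04 (SE). Within 2-fold of each other were 33 of the 245 pairs, and the median pair differed by 4.44 on the log2 scale. Since miR-129-5p comes from both hairpins, its ratio to the 3p arm of either locus cannot be read as the strand balance of that hairpin. Against the sum of both 3p arms its ratio lay further from 1, at 0.762 ± 0.0466 in saline and 0.860 ± 0.0484 in withdrawal (SD, n = 3 each). The count of 2 closer pairs does not apply to that ratio.

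**Figure D3:**
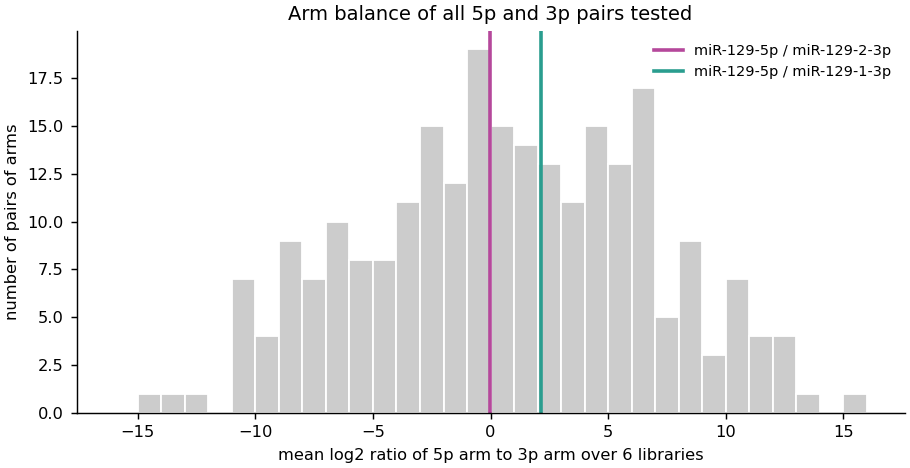
Histogram of the mean log2 ratio of 5p to 3p arm over 6 libraries for 245 pairs of arms, with a shared arm counted in each of its pairs. Lines mark miR-129-5p against miR-129-2-3p, near 0, and against miR-129-1-3p.

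The 3p arms of the 2 loci kept an almost fixed proportion. The ratio of miR-129-1-3p to miR-129-2-3p was 0.219, 0.222 and 0.218 in saline libraries 1, 2 and 3, and 0.224, 0.229 and 0.224 in withdrawal libraries 1, 2 and 3. In saline its SD on the log2 scale was 0.013, and the counting error expected from the reads was between 0.012 and 0.013. In withdrawal the SD was 0.020. By contrast the log2 ratio of miR-129-5p to miR-129-2-3p had SDs of 0.090 and 0.084, against a counting error of at most 0.008. The high value of saline 1 and the low value of withdrawal 2 were thus common to both 3p arms and absent from the 5p arm.

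Between groups the ratio of the 3p arms differed little. miR-129-1-3p made up 18.0 ± 0.135% of 3p reads in saline and 18.4 ± 0.210% in withdrawal (SD, n = 3 each, two-sided exact permutation p = 0.1). Every withdrawal library was above every saline library. Among the 17 pairs of arms from a locus 1 and a locus 2, the groups did not overlap in 23.5%. The log2 difference of 0.04 ± 0.04 did not pass among these 17 (limma, adjusted p = 0.65), of which 0% passed, with 0 at an unadjusted p under 0.05. Its 95% interval ran from -0.07 to 0.15, so this fit does not show that the loci responded alike or unlike. limma draws the variance of each pair toward that of all 17, whose median residual SD was 0.164. The interval is therefore wider than the spread of this pair alone (residual SD 0.017) would give.

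Other miRNAs with 2 loci had looser proportions. The residual SD of the log2 ratio within groups was 0.017 for miR-129, the smallest of the 17, against a median of 0.164. This spread falls with read number, and miR-129 was the only pair with both arms at 10000 or more. The nearest in reads were miR-125b-1-3p with miR-125b-2-3p (ratio 0.23 to 0.26, residual SD 0.034) and miR-181a-1-3p with miR-181a-2-3p (5.28 to 5.67, residual SD 0.050). miR-219a-1-3p with miR-219a-2-3p, of an oligodendrocyte miRNA, was among the most unequal at 0.00591 to 0.00814 (residual SD 0.164). What part the single differing base of the miR-129 3p arms has in their fixed proportion was not tested.

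**Figure D4:**
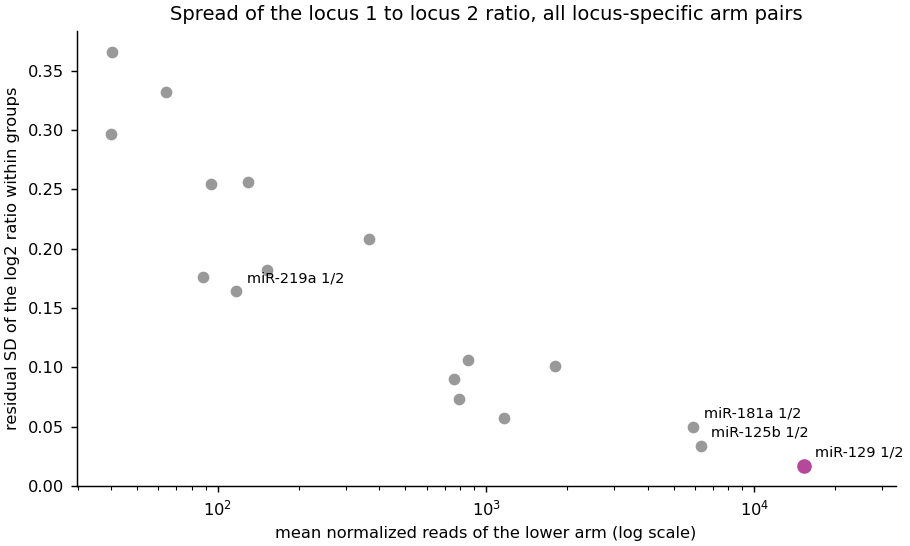
Residual SD within groups of the log2 ratio of locus 1 to locus 2 for 17 pairs of locus-specific arms, against the mean normalized reads of the lower arm (log scale). miR-129 lies at the lowest SD (0.017) and the highest read number.

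Likeness of pattern was measured as the root mean square difference of centred log2 values over the 6 libraries, as a description. The 3p arms were each other's nearest of 698 miRNAs, at 0.024. Next for both came miR-1839-3p and miR-186-5p, at 0.028 each from miR-129-1-3p and 0.040 each from miR-129-2-3p. miR-129-5p was the 299th nearest to miR-129-1-3p and the 336th nearest to miR-129-2-3p, at 0.096 and 0.116. Its own nearest were miR-210-3p (0.010), a miRNA induced by hypoxia, miR-101a-3p (0.010) and miR-101b-3p (0.013). None of these passed the test, with log2 fold changes of 0.07 ± 0.04, 0.09 ± 0.03 and 0.05 ± 0.03 (limma, adjusted p = 0.317, 0.0576 and 0.278). miR-101a-3p passed in 6 alternatives, at 0.09 to 0.13 (limma adjusted p = 0.0106 to 0.0472).

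**Figure D5:**
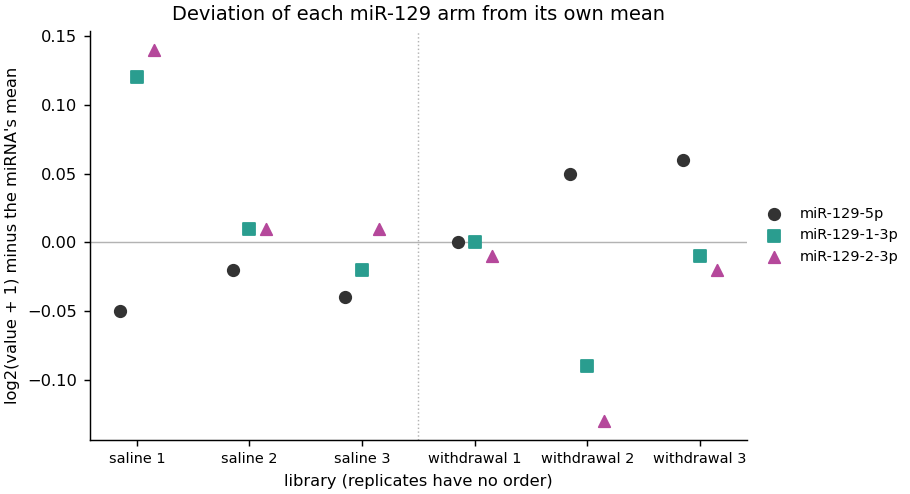
log2(value + 1) of each miR-129 arm minus its own mean over 6 libraries. The 3p arms (squares and triangles) are displaced together, highest in saline 1 and lowest in withdrawal 2, while miR-129-5p (circles) spans -0.05 to 0.06.

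The arms also differed in spread within groups. On the log2 scale miR-129-5p had a residual SD of 0.025, miR-129-1-3p of 0.063 and miR-129-2-3p of 0.072. Among the 157 miRNAs of 10000 normalized reads or more, the median was 0.035, and 41, 136 and 146 had a smaller SD than the respective arm. Put on the same scale, all 3 are above the counting error, if 1 step is 1 read. That error was at most 0.416% for miR-129-5p, 0.826% for miR-129-1-3p and 0.387% for miR-129-2-3p.

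By level, miR-129-2-3p and miR-129-5p were neighbours, at ranks 68 and 69 of the 699 miRNAs tested. Their means over 6 libraries were 68723 ± 4177 and 67869 ± 2197 (SD, n = 6), which do not differ beyond that spread. These SDs pool both groups and leave out that the arms share libraries. Within libraries miR-129-2-3p had more reads in every saline library and in withdrawal 1, and miR-129-5p in withdrawal 2 and 3. miR-29c-3p stood just above miR-129-2-3p at 70056 ± 1829 and let-7d-5p just below miR-129-5p at 65859 ± 1547. miR-129-1-3p ranked 137 at 15293 ± 732, between miR-1298-3p (15427 ± 427) and miR-1298-5p (15164 ± 481), from which it did not differ beyond the spread.

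miR-129-5p was set beside 20 miRNAs known, like it, from dendrites, spines or synaptic scaling. Of these 0 rose, 3 fell and 17 did not pass, against 6.58% called over all miRNAs, and the median log2 fold change was -0.02 against 0.00 over all. miR-485-5p, which acts on presynaptic vesicle protein SV2A in rat neurons, fell from 4226 ± 45 to 3705 ± 53 (SD, n = 3 each, log2 fold change -0.19 ± 0.03, limma adjusted p = 0.00673). miR-138-5p, which limits spine size in rat neurons, fell by 0.25 ± 0.05 and miR-92a-3p, tied to synaptic scaling in rat neurons, by 0.12 ± 0.03 (limma adjusted p = 0.00934 and 0.0156). The most abundant, miR-181a-5p, stood at -0.03 ± 0.05. These 3 calls were lost in limma without a trend of variance on level, which called 0 miRNAs (112 at an unadjusted p under 0.05), and that of miR-92a-3p also with equal totals (-0.08) and without saline 2, saline 3, withdrawal 1 or withdrawal 2 (-0.12 to -0.11). Of the 20, 8 had a positive log2 fold change like miR-129-5p, among them miR-495-3p (0.09 ± 0.03) and miR-329-3p (0.08 ± 0.04), which did not pass (limma adjusted p = 0.122 and 0.184).

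Other cell types could contribute to bulk tissue, and their miRNAs were followed beside the arms. The 3 erythrocyte miRNAs summed to 109926 to 112805 in saline and 122444 to 125573 in withdrawal, led by miR-486a-5p, which rose (0.16 ± 0.03, limma adjusted p = 0.00673). The other erythrocyte miRNAs, miR-451a at 0.15 ± 0.05 and miR-144-3p at 0.01 ± 0.06, did not pass (limma adjusted p = 0.0688 and 0.933). The 5 of choroid plexus and epithelium summed to 87403 to 90837 and 91561 to 94004. miR-204-5p, the most abundant, stood at 0.07 ± 0.03 and did not pass (limma adjusted p = 0.156). miR-141-3p rose (0.71 ± 0.13, limma adjusted p = 0.00759), but at a low level, 105 ± 13.9 and 172 ± 22.9 normalized reads (SD, n = 3 each). All 5 had a positive log2 fold change, and 4 did not pass. The 3 of oligodendrocytes summed to 104793 to 110978 and 97921 to 100514, with miR-338-3p lower (-0.16 ± 0.03, limma adjusted p = 0.00723). The other oligodendrocyte miRNAs, miR-219a-5p at 0.08 ± 0.05 and miR-219a-2-3p at -0.03 ± 0.03, did not pass (limma adjusted p = 0.397 and 0.693). The 2 of endothelium summed to 319628 to 324696 and 303351 to 313594, with miR-126a-3p lower (-0.10 ± 0.03, limma adjusted p = 0.0347) and miR-126a-5p the most abundant. The 4 of microglia and leukocytes, led by miR-142a-5p, summed to 10249 to 10687 and 9998 to 10244. miR-142a-5p itself stood at -0.06 ± 0.03, the other 3 were positive (0.01 to 0.26), and none passed. The call of miR-126a-3p was lost with equal totals (-0.07) and without saline 2, saline 3, withdrawal 1 or withdrawal 2. The calls of miR-486a-5p (0.12) and miR-141-3p (0.75) were lost with quantile normalization (limma adjusted p = 0.134 and 0.0655), and those of all 4 called markers in limma without a trend. No defining marker of these types stood at 0. The sums did not overlap between groups, as was the case for 27.6% of single miRNAs. In microglia and leukocytes the margin was narrow (10249 and 10244). Normalized totals were lower in withdrawal, and the sums were not taken as shares of them. Each sum followed mainly its most abundant member. The part of these cell types in the miR-129 values was not tested.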

How the data were processed

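Small RNA libraries were made with the TruSeq Small RNA kit from Trizol-extracted RNA, per the labels' protocols. The authors deposited 1 table of normalized signal for 756 miRNAs in 6 libraries. The submitters' processing notes name DESeq2 and mm9. The sources used here do not give the aligner, the miRNA annotation or the treatment of shared reads. All values were whole multiples of a step per library (within 0.01 of a step), with the smallest positive value at 4 or 5 steps. Since no value of 1 step was listed, steps served only to describe depth and no count test was run.

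miRNAs with at least 10 normalized reads in at least 3 libraries were tested (699; 57 were not). limma 3.58.1 (R 4.3.3) fitted log2(value + 1), with the variance modelled as a function of level; p-values were two-sided and, after Benjamini-Hochberg adjustment, called under 0.05. The same tool without the trend fitted log2 ratios of 245 pairs of 5p and 3p arms and 17 pairs of locus-specific arms. Values made from several arms got exact permutation tests. Code was tested on simulated data. Alternatives were other pseudocounts, filters, scalings and variance models, a replicate block, and leaving out 1 library at a time. Members and lists were chosen with earlier results of these data known. Named miRNAs are the members, their neighbours in level and the 3 nearest in pattern. Also named are the most abundant and smallest-p member of each list, and the 3 most abundant locus pairs. miR-92a-3p, miR-495-3p, miR-329-3p, miR-451a, miR-144-3p and the miR-219a arms as markers were named after their values were seen. Sequences come from RefSeq on GRCm38.p6, aligned with Biopython 1.88.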

Additional observations from a re-analysis of the deposited data

How the results depend on the processing

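No arm or ratio of miR-129 changed sign in any alternative. miR-129-5p ranged from 0.06 to 0.11 on the log2 scale over 16 alternatives and passed in 2 of them, at 0.11 with equal library totals and at 0.07 with the replicate block (limma adjusted p = 0.031 and 0.0297; range 0.0297 to 0.338). miR-129-2-3p ranged from -0.13 to -0.06 and passed only with the replicate block, at -0.11 (limma adjusted p = 0.015; range 0.015 to 0.416). miR-129-1-3p ranged from -0.10 to -0.03 and passed in none. Without 1 library these were 0.06 to 0.09, -0.13 to -0.06 and -0.10 to -0.03, and the ratios 0.13 to 0.22 (5p over 2-3p), 0.09 to 0.18 (5p over 1-3p), 0.03 to 0.05 (1-3p over 2-3p) and 0.12 to 0.21 (5p over both 3p arms). None of the 3 ratios between single arms passed in any alternative; that over both 3p arms could not, since its exact permutation test cannot reach 0.05 here. Deviations of libraries with the same replicate number had correlations of -0.07, 0.09 and 0.04, and the best match of 3 of 6 libraries was their own number, so the pairing rests on a number alone.

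The 46 calls became 106 with the replicate block, 22 with quantile normalization, 0 in limma without a trend (112 at an unadjusted p under 0.05), and 17 to 58 without 1 library: 17 without saline 2, 21 without saline 3 and 21 without withdrawal 2. Arm ratios went from 0 to 1 with a trend (miR-16-5p over miR-16-1-3p) and to 0 to 1 without 1 library (miR-6990 without withdrawal 3; both were named after their values were seen). Locus ratios went from 0 to 1 with a trend (miR-125b) and stayed at 0 without 1 library. The difference in the summed share turned to -0.000761 percentage points with the most abundant miRNA left out of the total and ranged from -0.00186 to 0.00711 without 1 library. With equal totals miR-181a-5p turned to 0.00 and miR-29c-3p to 0.03. Without 1 library miR-122-5p ranged from -0.40 to 0.04, miR-181a-5p from -0.09 to 0.01, miR-29c-3p from -0.03 to 0.02, the miR-181a locus ratio from -0.04 to 0.01 and that of miR-219a from -0.21 to 0.01. The causes were not tested. Planned count tests were left undone because no raw counts were used.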
